A study of Mus musculus with 6 samples.

Results

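The collagen genes outside type IV are the rows of the deposited expression table whose symbol is Col, a number, a and a number, with the Col4a genes left out. There were 38 such genes among 55359 in the table, and the 6 type IV genes stood apart. By structural class they were 11 fibrillar collagens, 6 collagens of beaded filaments (type VI), 3 network-forming collagens (types VIII and X), 9 FACITs (fibril-associated collagens with interrupted triple helices) and 9 others. The others were the transmembrane collagens Col13a1, Col17a1, Col23a1 and Col25a1, the multiplexins Col15a1 and Col18a1, the anchoring fibril gene Col7a1, and Col26a1 and Col28a1. The rule picks members by name and uses no measured value, but it was chosen with earlier results of these data known.

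The study sequenced poly(A) RNA of the whole lung, taken at E18.5, shortly before birth, from C57 mice. There were 3 libraries labelled Prmt5 knockdown and 3 labelled WT. Replicate numbers were assigned here within each group in the order of the samples, so the same number in both groups is no pairing or batch. Prmt5 is an arginine methyltransferase, and histones and splicing proteins are among its substrates. The series text describes a Prmt5 knockout driven by Dermo1, another name of the mesenchymal gene Twist2, while the sample labels say knockdown. The growth text, which WT samples carry as well, speaks of pregnant mice with the knockdown in lung mesenchyme. No allele, Cre carrier status, litter or batch is given for either group, so the p-values measure only the spread between these libraries. Dermo1 is a mesenchymal gene, whereas RNA of the whole lung also holds epithelium, endothelium and blood. In such bulk samples fewer cells of a type and less RNA per cell cannot be told apart.

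Collagens are trimers of chains in which glycine opens each Gly-X-Y triplet, and this repeat lets the chains wind into a triple helix. Fibrillar collagens I, III and V build the tensile fibrils of interstitium, airways and vessel walls, and collagens II and XI those of cartilage. Type VI collagen forms beaded microfilaments close to basement membranes, FACITs lie on the surface of fibrils, and network collagens form sheets. In the lung, fibroblasts and smooth muscle cells make most fibrillar collagen, and airway cartilage and mesothelium lie in the same organ.

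The classes differ in the DNA that encodes the helix, and 6 coding exons from the GENCODE M21 annotation and the GRCm38 genome serve as examples. Exons were picked as the first of the commonest length within the longest unbroken run of Gly-X-Y triplets, so their lengths were set by this choice. Each is written 5′ to 3′ on the strand of the gene and holds only whole Gly-X-Y triplets, and capitals mark the glycine codon (GGN) that opens each triplet. A lower-case ggn codon in a later place of a triplet also encodes glycine. The exons of Col1a2, Col3a1 and Col5a1 stand for fibrillar chains, those of Col6a1 and Col6a3 for the beaded filament, and that of Col9a2 for the FACITs.
Col1a2, exon 8, chr6:4515481-4515534, plus strand: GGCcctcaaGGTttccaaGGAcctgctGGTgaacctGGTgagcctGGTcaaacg
Col3a1, exon 6, chr1:45325360-45325413, plus strand: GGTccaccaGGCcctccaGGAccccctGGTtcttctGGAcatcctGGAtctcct
Col5a1, exon 15, chr2:27965251-27965304, plus strand: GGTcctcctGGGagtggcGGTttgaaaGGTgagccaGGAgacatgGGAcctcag
Col6a1, exon 15, chr10:76717795-76717857, minus strand: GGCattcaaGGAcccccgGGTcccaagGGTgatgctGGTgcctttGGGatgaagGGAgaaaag
Col6a3, exon 25, chr1:90789031-90789093, minus strand: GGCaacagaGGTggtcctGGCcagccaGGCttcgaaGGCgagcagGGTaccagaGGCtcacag
Col9a2, exon 12, chr4:121045141-121045194, plus strand: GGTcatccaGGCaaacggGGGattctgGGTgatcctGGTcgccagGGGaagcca

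The fibrillar and FACIT exons shown have 54 bases and 6 triplets, and the type VI exons have 63 bases. By the rule that picked them, the length was 54 bases in the type VI genes Col6a5 and Col6a6 and 45 bases in the FACIT Col19a1. Over whole genes, fibrillar members had 21 to 33 coding exons of 54 bases (median 29). FACITs had 4 to 28 of them, type VI genes 2 to 3, and network genes 0, while type VI genes had 7 to 8 exons of 63 bases. The longest unbroken run of GGN triplets was 338 in Col1a1, 339 in Col1a2 and 344 in Col3a1. It was shorter in the fibrillar genes Col24a1 (216) and Col27a1 (217). Type VI runs ended at 87 triplets, in Col6a1 and Col6a2, with 45 in Col6a3. FACIT runs had 32 triplets in Col12a1, Col14a1 and Col20a1, and 113 in Col9a1, Col9a2, Col9a3 and Col22a1. The repeat is thus longest in the fibrillar chains and broken into shorter stretches in the other classes.

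Depth and tissue content set the frame for all values. Counts assigned to genes ranged from 14383415 to 19262837 per library, and the collagen members held 1.10% ± 0.135 of them in knockdown-labelled libraries and 1.07% ± 0.0756 in WT libraries (SD, n = 3 each). Prmt5 had 9.96, 12.0 and 11.8 FPKM in knockdown-labelled libraries 1, 2 and 3, against 11.8, 11.9 and 12.1 FPKM in WT libraries 1, 2 and 3 (log2 fold change -0.08, adjusted p = 0.682 from edgeR's quasi-likelihood test with Benjamini-Hochberg adjustment). The knockdown label is thus not visible in the targeted transcript of the whole lung. FPKM here are fragments per kilobase of exonic length, scaled to library totals that were corrected with TMM factors. Markers of alveolar type 2 cells marked every library as lung, with a summed level of 9839 to 12020 FPKM in knockdown-labelled and 9122 to 11359 FPKM in WT libraries. The libraries also held muscle RNA in unequal amounts. The 8 skeletal muscle markers summed to 328, 194 and 1725 FPKM in knockdown-labelled libraries, against 115, 37.9 and 710 FPKM in WT libraries, so that replicate 3 of each group was highest. Ckm alone gave 139 of the 194 FPKM in knockdown-labelled replicate 2. Myod1, Myog and Myh3 were lowest of all libraries there, and the other skeletal muscle markers were lowest in WT replicate 2. The 12 heart muscle markers summed to 1994, 4126 and 1349 FPKM in knockdown-labelled libraries, against 171, 215 and 1406 FPKM in WT libraries. All 12 heart markers and all 8 skeletal muscle markers had positive fold changes, and 8 and 0 of them had an unadjusted p under 0.05. Endothelial markers had 317 to 402 FPKM in knockdown-labelled and 465 to 538 FPKM in WT libraries, with negative fold changes and an unadjusted p under 0.05 for 5 of 5. Alveolar type 1 markers had 643 to 803 FPKM in knockdown-labelled and 964 to 1105 FPKM in WT libraries, with 0 of 5 fold changes positive and 3 of 5 lower at that p. The 6 fibroblast markers summed to 288 to 329 FPKM in knockdown-labelled and 317 to 321 FPKM in WT libraries, but they were split, with 1 higher (Dcn) and 2 lower (Pdgfra and Dpt) at that p. Dcn had 31.4, 34.3 and 47.3 FPKM in knockdown-labelled libraries, against 11.9, 14.7 and 27.9 FPKM in WT libraries, and Pdgfra had 19.6, 16.1 and 16.2 FPKM in knockdown-labelled libraries, against 22.6, 23.5 and 22.1 FPKM in WT libraries. Neither overlapped between the groups. The part of these tissues in the collagen values was not tested unless a value is given beside the result.

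Few of the collagen genes carried most of the signal. The summed level of all members was 1422 ± 144 FPKM in knockdown-labelled libraries and 1390 ± 95.3 FPKM in WT libraries (SD, n = 3 each; exact permutation test, two-sided, p = 0.7). Col1a1, Col1a2, Col3a1, Col6a1, Col6a2 and Col6a3 together held 78.8% ± 0.704 of that sum in knockdown-labelled libraries and 78.5% ± 1.06 in WT libraries. Fibrillar genes held 47.4% ± 3.69 of it in knockdown-labelled and 43.1% ± 2.76 in WT libraries (exact permutation p = 0.3). Beaded filament genes held 39.4% ± 3.55 in knockdown-labelled and 43.2% ± 2.92 in WT libraries (exact permutation p = 0.3). FACITs held 4.47% ± 0.456 in knockdown-labelled and 5.08% ± 0.266 in WT libraries (exact permutation p = 0.2). The network class held 0.226% in knockdown-labelled and 0.213% in WT libraries, and the other collagens 8.48% in knockdown-labelled and 8.40% in WT libraries (exact permutation p = 0.8 for both, n = 3 each). The share of each class overlapped between the groups. All these shares rest on the exonic lengths used, which are uneven, such as 12426 bases for Col1a2 and 4380 bases for Col6a1. With 3 against 3 libraries this test cannot go below 0.1.

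**Figure D1:**
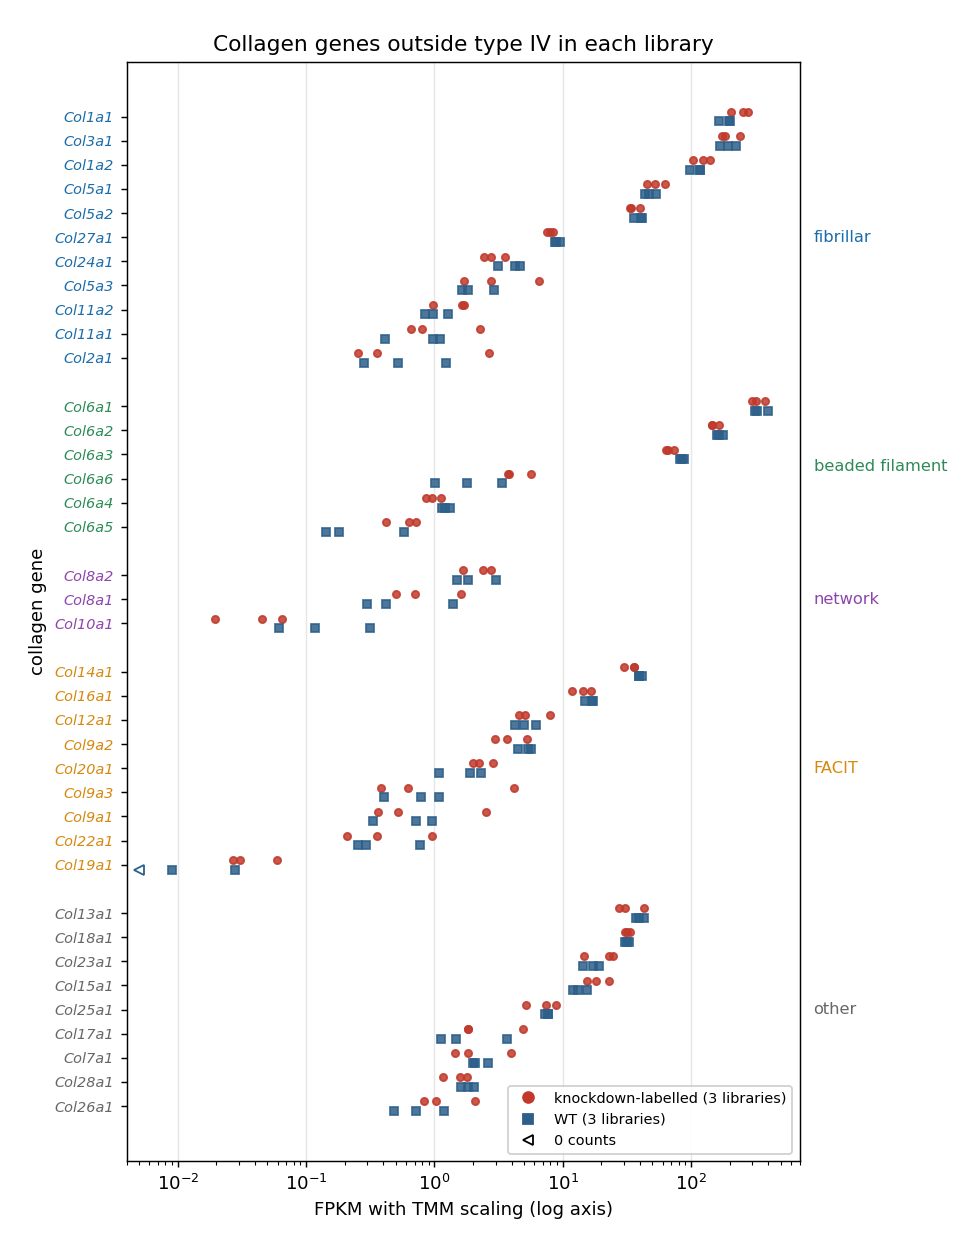
Level of each of the 38 collagen genes in FPKM with TMM scaling (log axis) in 3 knockdown-labelled (circles) and 3 WT libraries (squares), by structural class, with open triangles for 0 counts. Col6a1, Col1a1, Col3a1, Col6a2 and Col1a2 lie above all other members, and Col10a1 and Col19a1 lie lowest.

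The ratios between chains that share a trimer or a fibril compare genes within a library, so that library scaling cancels. Type I collagen is built from α1 and α2 chains, encoded by Col1a1 and Col1a2 on different chromosomes. The FPKM ratio of Col1a1 to Col1a2 was 2.03, 1.96 and 1.97 in knockdown-labelled libraries, against 1.70, 1.71 and 1.68 in WT libraries. Every knockdown-labelled library lay above every WT library, and the spread within a group was small (1.99 ± 0.0363 in knockdown-labelled and 1.70 ± 0.0130 in WT libraries, SD, n = 3 each). The group difference was 0.23 on the log2 scale and stayed between 0.21 and 0.24 when any library was left out. The height of the ratio rests on the table's exonic lengths, but the difference between groups does not, since each length cancels.

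Type V collagen, which sits inside type I fibrils and limits their diameter, had the same direction. The ratio of Col5a1 to Col5a2 was 1.53, 1.36 and 1.57 in knockdown-labelled libraries, against 1.22, 1.16 and 1.29 in WT libraries. The groups did not overlap, with 1.49 ± 0.109 in knockdown-labelled and 1.22 ± 0.0627 in WT libraries (SD, n = 3 each), a log2 difference of 0.28. The ratio of Col3a1, the chain of the thin reticular fibrils of elastic organs, to Col1a1 was 0.733, 0.860 and 0.866 in knockdown-labelled libraries, against 1.01, 0.969 and 1.13 in WT libraries. It was lower in each knockdown-labelled library than in any WT library, with a log2 difference of -0.34. This ratio and that of the type I chains share Col1a1 and are not independent.

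In type VI collagen, α1, α2 and α3 chains assemble in equal numbers. The ratio of Col6a3 to Col6a1 was 0.196, 0.215 and 0.208 in knockdown-labelled libraries, against 0.259, 0.222 and 0.263 in WT libraries. The groups did not overlap (0.206 ± 0.00973 in knockdown-labelled and 0.248 ± 0.0225 in WT libraries, SD, n = 3 each), a log2 difference of -0.26. The ratio of Col6a1 to Col6a2 overlapped between the groups, with 2.18 ± 0.133 in knockdown-labelled and 2.05 ± 0.141 in WT libraries (SD, n = 3 each; exact permutation p = 0.3).

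Of 9 chain ratios computed, these 4 did not overlap between the groups, 2 higher and 2 lower in knockdown-labelled libraries. Among single genes, 10.8% did not overlap and were higher and 12.4% did not overlap and were lower, and no such share is given for ratios of other genes. Col1a1, Col6a1 and Col9a2 each stand in 2 of the 9, so the 9 ratios are not all independent. Each of the 4 ratios without overlap reached p = 0.1 in the two-sided exact permutation test, the smallest p that 3 against 3 libraries allow. After Benjamini-Hochberg adjustment over the 9 ratios, the permutation p of each was 0.225. None of the 9 therefore passed a threshold of 0.05. The remaining ratios, Col11a1 to Col2a1, Col8a1 to Col8a2, Col9a1 to Col9a2 and Col9a3 to Col9a2, overlapped, with exact permutation p from 0.5 to 0.6.

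Base composition was set beside these ratios because the paired genes differ in it. The transcripts had a GC content of 58.9% for Col1a1, 55.7% for Col1a2, 52.5% for Col3a1, 58.0% for Col5a1, 49.6% for Col5a2, 54.5% for Col6a3 and 56.7% for Col6a1. Other genes within 1 percentage point of the GC content of each partner had medians that differed by -0.01 for Col1a1 and Col1a2, -0.02 for Col3a1 and Col1a1, 0.02 for Col5a1 and Col5a2, and -0.00 for Col6a3 and Col6a1, on the log2 fold change scale. Single genes spread more widely than these medians: among genes within 1 point of Col1a1, the quartiles of the log2 fold change were -0.09 and 0.20, and near Col5a2 they were -0.13 and 0.21. The part of base composition in the ratios was not tested.

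**Figure D2:**
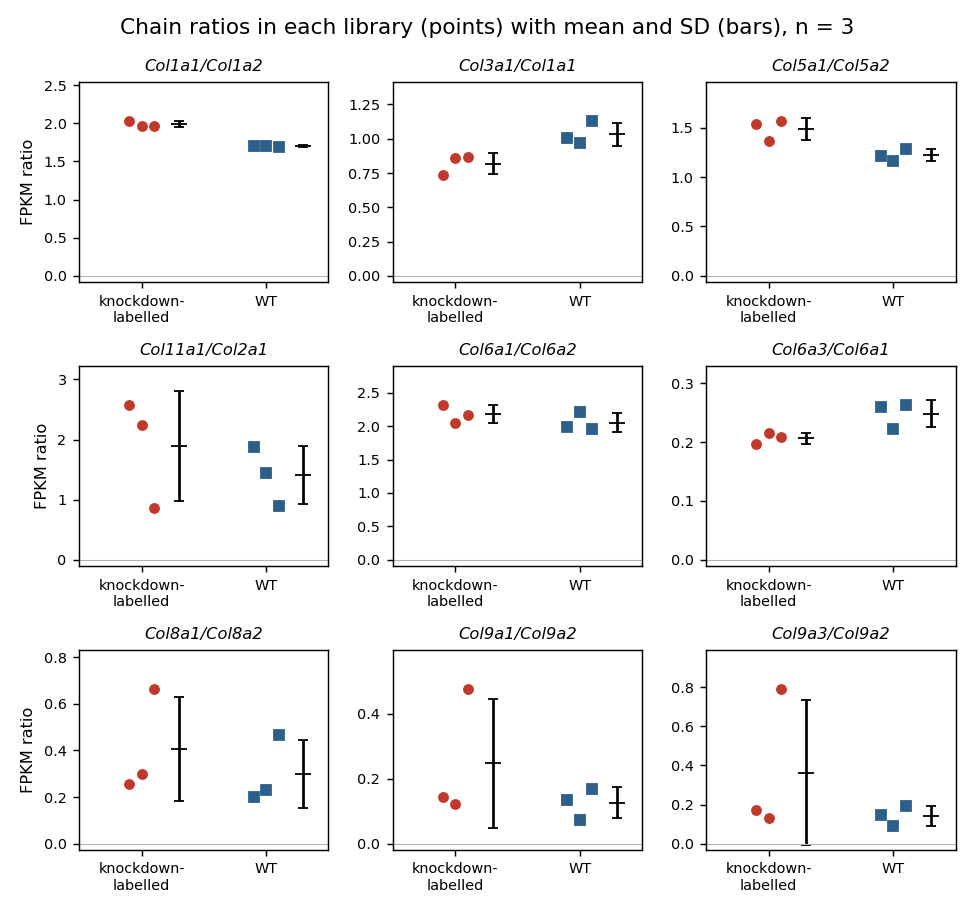
FPKM ratio of each of 9 chain pairs in 3 knockdown-labelled (circles, left) and 3 WT libraries (squares, right), with the mean and SD of each group as bars. Col1a1/Col1a2 and Col5a1/Col5a2 lie higher, and Col3a1/Col1a1 and Col6a3/Col6a1 lie lower, in all knockdown-labelled libraries, while the type VIII, IX and XI/II pairs are widened by replicate 3.

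Across single genes, 36 of the 38 members had enough counts for the edgeR quasi-likelihood test. None passed a Benjamini-Hochberg adjusted p of 0.05, in either direction, and the smallest adjusted p was 0.174. Among all 17728 genes tested, 0.0338% did. DESeq2 called 1 member higher (Col6a6) and 1 lower (Col6a3), 2.78% each, beside 2.33% of all genes higher and 3.02% lower by that tool. At an unadjusted edgeR p under 0.05, 3 of 36 members were higher (8.33%), beside 8.48% of all genes, and 4 of 36 were lower (11.1%), beside 8.52% of all genes. The higher ones were Col1a1, Col6a6 and Col15a1, and the lower ones Col6a3, Col14a1, Col27a1 and Col24a1. With the heart muscle level as a covariate none of the 36 had an unadjusted edgeR p under 0.05. Over all 17728 genes the number fell as well, from 3015 to 1137. The heart muscle level runs largely with the group label, so this fit cannot tell the 2 apart. Ranges of the log2 fold change over 18 settings, this covariate among them, were as follows. They were 0.28 to 0.49 for Col1a1, 0.30 to 0.59 for Col15a1 and 0.41 to 1.66 for Col6a6. For the lower members they were -0.37 to -0.22 (Col6a3), -0.29 to -0.09 (Col14a1), -0.24 to -0.11 (Col27a1) and -0.62 to -0.34 (Col24a1). Groups did not overlap for 2 members higher in knockdown-labelled libraries (5.56%, beside 10.8% of all genes) and for 4 lower (11.1%, beside 12.4% of all genes). These shares lie near those of all genes, so the members as a list did not stand apart. Their median log2 fold change was 0.15, with 23 positive and 13 negative, beside 0.01 for all genes tested. By class the median was 0.15 for fibrillar, -0.10 for beaded filament, 0.27 for 2 network, 0.20 for 8 FACIT and 0.12 for the other genes. The fibrillar median was -0.11, the FACIT median -0.45 and that of the other genes -0.10 without knockdown-labelled replicate 3, and the network median 0.93 without WT replicate 3.

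**Figure D3:**
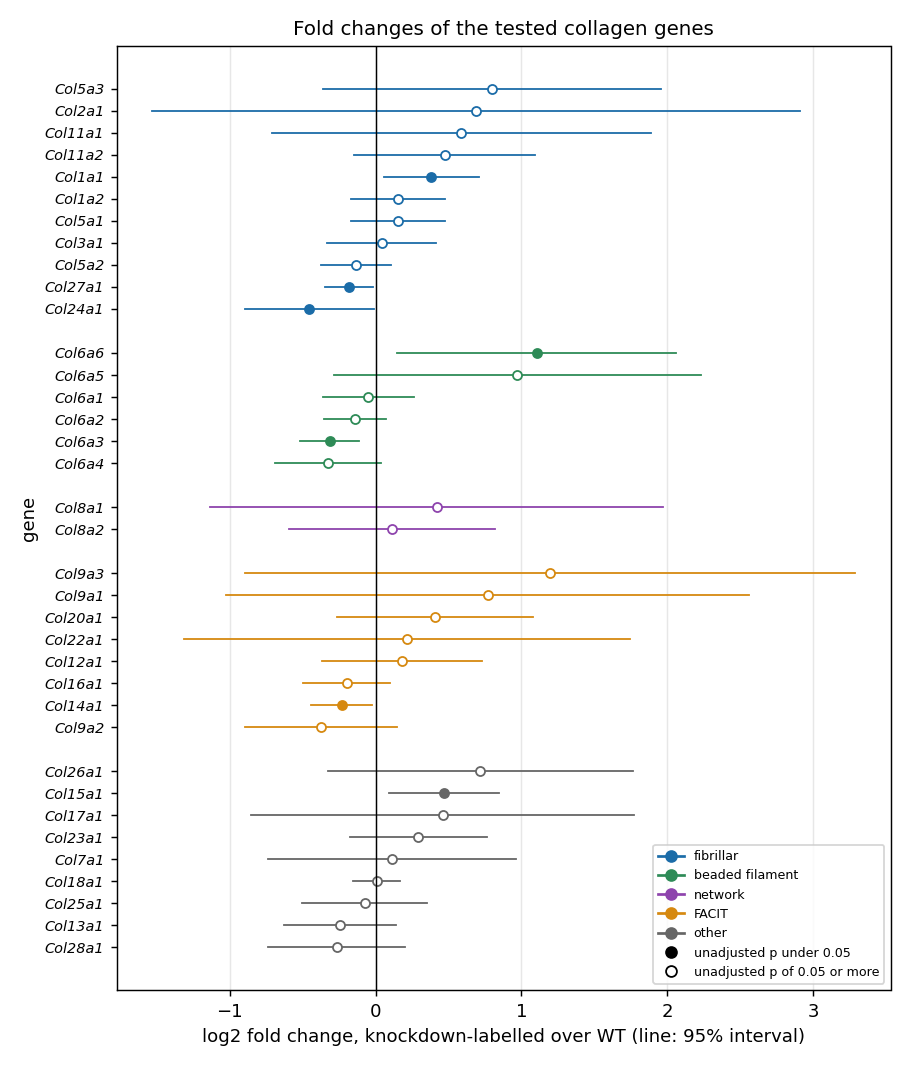
Log2 fold change of the 36 tested collagen genes, knockdown-labelled over WT, with 95% intervals from the edgeR quasi-likelihood fit. Filled points mark the 7 genes with an unadjusted p under 0.05, none of which passed after adjustment, and the cartilage genes Col9a3 and Col2a1 have the widest intervals.

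Among the fibrillar genes, Col1a1 was the member whose groups separated upward. Col1a1 (ENSMUSG00000001506, chromosome 11, 94827050 to 94843868, plus strand, as the table gives it with no build named) had 252, 204 and 278 FPKM in knockdown-labelled libraries, against 167, 201 and 197 FPKM in WT libraries. The lowest knockdown-labelled library was only slightly above the highest WT library. The means were 245 ± 37.4 FPKM in knockdown-labelled and 188 ± 18.7 FPKM in WT libraries (SD, n = 3 each; 1.30-fold, log2 fold change 0.38, SE 0.14, 95% interval 0.05 to 0.71, edgeR adjusted p = 0.243). Its partner Col1a2 had 124, 104 and 141 FPKM in knockdown-labelled libraries, against 97.7, 118 and 117 FPKM in WT libraries (log2 fold change 0.15, edgeR adjusted p = 0.623). The Col1a2 groups overlapped, so the separation was seen for Col1a1 and for its ratio to Col1a2.

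Col3a1 had 185, 176 and 241 FPKM in knockdown-labelled libraries, against 167, 195 and 222 FPKM in WT libraries, with a log2 fold change of 0.04 and a 95% interval of -0.33 to 0.42. The groups overlapped throughout. Col5a1 had 52.1, 45.6 and 63.1 FPKM in knockdown-labelled libraries, against 44.1, 47.1 and 53.7 FPKM in WT libraries. Its partner Col5a2, which lies 24.6 kb from Col3a1 on the opposite strand of chromosome 1 in the table, had 34.0, 33.5 and 40.3 FPKM in knockdown-labelled libraries, against 36.2, 40.6 and 41.8 FPKM in WT libraries. The log2 fold changes of 0.15 for Col5a1 and -0.14 for Col5a2 had opposite signs, and neither gene alone separated the groups (edgeR adjusted p = 0.626 and 0.545).

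The fibrillar genes with short helices had negative fold changes. Col27a1, known from cartilage, had 7.96, 7.59 and 8.37 FPKM in knockdown-labelled libraries, against 8.78, 9.57 and 8.82 FPKM in WT libraries. These groups did not overlap, though the difference was small (log2 fold change -0.18, SE 0.07, edgeR adjusted p = 0.267), and with the heart muscle level as a covariate the log2 fold change was -0.11. Col24a1, known from bone, had 2.74, 2.44 and 3.55 FPKM in knockdown-labelled libraries, against 3.14, 4.62 and 4.25 FPKM in WT libraries. Its groups overlapped (log2 fold change -0.46, SE 0.19, edgeR adjusted p = 0.285).

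The cartilage fibril genes were low and uneven. Col2a1, the main collagen of cartilage, had 0.253, 0.359 and 2.65 FPKM in knockdown-labelled libraries, against 0.520, 0.282 and 1.23 FPKM in WT libraries. Col11a1, which nucleates those fibrils, had 0.652, 0.802 and 2.28 FPKM in knockdown-labelled libraries, against 0.971, 0.409 and 1.11 FPKM in WT libraries. Replicate 3 was the highest of each group in both genes, and the groups overlapped. The 95% interval of Col2a1 ran from -1.53 to 2.91 on the log2 scale, so a difference in either direction was not detectable at this spread. Of the remaining fibrillar genes, Col5a3 ranged from 1.63 to 6.58 FPKM and Col11a2 from 0.851 to 1.70 FPKM over the 6 libraries.

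In the beaded filament class, Col6a1 had the highest mean FPKM of the members, with type IV genes not ranked. By counts, Col3a1 was above it, with 100203 against 72961 over the knockdown-labelled and 88024 against 69238 over the WT libraries. Col6a1 had 379, 299 and 319 FPKM in knockdown-labelled libraries, against 325, 395 and 314 FPKM in WT libraries. Col6a2, its neighbour at 85.2 kb on chromosome 10, had 164, 146 and 147 FPKM in knockdown-labelled libraries, against 164, 178 and 160.2 FPKM in WT libraries. Both overlapped between the groups (log2 fold changes -0.05 and -0.14). Col6a3, the large chain with many von Willebrand factor A domains, had 74.3, 64.3 and 66.3 FPKM in knockdown-labelled libraries, against 84.3, 87.7 and 82.6 FPKM in WT libraries. Every knockdown-labelled library lay below every WT library, with 68.3 ± 5.28 FPKM in knockdown-labelled and 84.9 ± 2.61 FPKM in WT libraries (SD, n = 3 each). This was 1.24-fold lower (log2 fold change -0.31, SE 0.09, 95% interval -0.52 to -0.11, edgeR adjusted p = 0.174), and DESeq2 called it (adjusted p = 0.00545). Among the collagen members it had the smallest edgeR p.

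Col6a4, Col6a5 and Col6a6 lie side by side on chromosome 9 and encode chains that can stand in for the α3 chain. Col6a6 had 3.80, 3.77 and 5.64 FPKM in knockdown-labelled libraries, against 1.01, 1.78 and 3.35 FPKM in WT libraries. The groups did not overlap, with 4.40 ± 1.07 FPKM in knockdown-labelled and 2.05 ± 1.19 FPKM in WT libraries (SD, n = 3 each; 2.15-fold, log2 fold change 1.10, SE 0.40, 95% interval 0.15 to 2.06, edgeR adjusted p = 0.247). DESeq2 called it with an adjusted p of 0.0403. The log2 fold change lay between 0.78 and 1.66 when any library was left out, with 1.66 without WT replicate 3. With the heart muscle level as a covariate its log2 fold change was 0.41. WT replicate 3, the WT library with the most heart and skeletal muscle RNA, was also the highest WT library for Col6a6. In the knockdown-labelled group Col6a6 was highest in replicate 3, with the least heart (1349 FPKM) and most skeletal muscle marker RNA (1725 FPKM). It was lowest in replicate 2, with the most heart (4126 FPKM) and least skeletal muscle marker RNA (194 FPKM). The part of muscle RNA was not tested. The neighbours were named after their values were seen. Col6a5, 27.9 kb away, had 0.418, 0.719 and 0.635 FPKM in knockdown-labelled libraries, against 0.144, 0.179 and 0.577 FPKM in WT libraries, and the groups overlapped. Col6a4, 28.8 kb further, had 0.859, 1.13 and 0.952 FPKM in knockdown-labelled libraries, against 1.32, 1.16 and 1.21 FPKM in WT libraries, without overlap (edgeR adjusted p = 0.337). The 3 neighbouring genes thus did not share a direction.

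Network collagens were near the lower end of the levels. Col8a2, a chain of the hexagonal lattice of Descemet's membrane in the eye, had 2.74, 1.68 and 2.41 FPKM in knockdown-labelled libraries, against 1.51, 1.82 and 3.00 FPKM in WT libraries. Its partner Col8a1 had 0.707, 0.504 and 1.60 FPKM in knockdown-labelled libraries, against 0.299, 0.422 and 1.39 FPKM in WT libraries. Both overlapped, and their ratio was highest in replicate 3 of each group. Col10a1, the collagen of hypertrophic cartilage, had 1, 2 and 4 counts in knockdown-labelled libraries, against 6, 14 and 3 counts in WT libraries, and was too low to be tested. It also overlaps Nt5dc1 on the other strand, with 1556 counts over all libraries, and the counting strand is not given in the sources used here, so its reads are uncertain.

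FACITs were led by Col14a1, a regulator of fibril diameter. It had 35.9, 30.3 and 36.0 FPKM in knockdown-labelled libraries, against 39.3, 41.8 and 39.0 FPKM in WT libraries. The groups did not overlap, with 34.1 ± 3.28 FPKM in knockdown-labelled and 40.0 ± 1.54 FPKM in WT libraries (SD, n = 3 each; log2 fold change -0.23, SE 0.09, edgeR adjusted p = 0.262). With the heart muscle level as a covariate its log2 fold change was -0.09. Col16a1 had 14.4, 11.9 and 16.5 FPKM in knockdown-labelled libraries, against 15.0, 17.0 and 17.1 FPKM in WT libraries, and Col12a1 had 5.11, 4.52 and 7.93 FPKM in knockdown-labelled libraries, against 4.28, 5.02 and 6.21 FPKM in WT libraries. Both overlapped. Col12a1, like Col14a1, links fibrils to the surrounding matrix.

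Type IX collagen joins 3 chains, from Col9a1, Col9a2 and Col9a3, on cartilage fibrils. Col9a2 had 3.66, 2.98 and 5.28 FPKM in knockdown-labelled libraries, against 5.33, 4.50 and 5.67 FPKM in WT libraries. Col9a1 had 0.522, 0.362 and 2.52 FPKM in knockdown-labelled libraries, against 0.717, 0.333 and 0.958 FPKM in WT libraries. Col9a3 had 0.623, 0.384 and 4.19 FPKM in knockdown-labelled libraries, against 0.783, 0.402 and 1.09 FPKM in WT libraries. Col9a2 was thus above its partner chains per length in all 6 libraries, while Col9a1 and Col9a3 were highest in knockdown-labelled replicate 3. The ratio of Col9a1 to Col9a2 was 0.143, 0.121 and 0.477 in knockdown-labelled libraries, against 0.134, 0.0740 and 0.169 in WT libraries. Among the low FACITs, Col22a1 ranged from 0.207 to 0.960 FPKM. Col20a1 ranged from 1.09 to 2.85 FPKM, but it overlaps a second gene on its own strand with 1155 counts against its 1040, so its reads are uncertain. Col19a1 had 3, 3 and 8 counts in knockdown-labelled libraries, against 1, 0 and 3 in WT libraries, and was not tested. A count of 0 allows up to 3 counts, for counting error only.

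Among the other collagens, Col15a1, a multiplexin of vascular and muscle basement membranes, had the lowest unadjusted p of the positive members. It had 18.0, 15.3 and 22.8 FPKM in knockdown-labelled libraries, against 13.2, 12.0 and 15.4 FPKM in WT libraries. The groups overlapped by a narrow margin at 15.3 and 15.4 FPKM, with 18.7 ± 3.76 FPKM in knockdown-labelled and 13.5 ± 1.70 FPKM in WT libraries (SD, n = 3 each; log2 fold change 0.47, SE 0.16, 95% interval 0.09 to 0.84, edgeR adjusted p = 0.223). Without knockdown-labelled replicate 3 its log2 fold change was 0.30. Its sister gene Col18a1, the source of endostatin, was the steadiest member, with 31.9, 30.4 and 33.2 FPKM in knockdown-labelled libraries, against 31.5, 32.8 and 30.7 FPKM in WT libraries, and a 95% interval of -0.15 to 0.17 for its log2 fold change. The transmembrane collagen Col13a1 had 42.9, 30.7 and 27.7 FPKM in knockdown-labelled libraries, against 39.3, 43.3 and 37.4 FPKM in WT libraries. Col23a1 had 22.9, 24.5 and 14.8 FPKM in knockdown-labelled libraries, against 14.5, 17.2 and 19.1 FPKM in WT libraries. In both, the groups overlapped, and knockdown-labelled replicate 3 was the lowest of its group. The remaining genes ranged from 5.17 to 8.89 FPKM for Col25a1, 1.12 to 4.94 FPKM for Col17a1, 1.45 to 3.97 FPKM for Col7a1, 1.16 to 2.02 FPKM for Col28a1 and 0.482 to 2.08 FPKM for Col26a1.

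Much of the variation among members followed single libraries rather than the group labels. Knockdown-labelled replicate 3 was the highest library for 21 of the 38 members, while knockdown-labelled replicate 2 was the lowest for 15 and WT replicate 1 for 12. No such counts over all genes are given, so these and the next counts cannot be read as particular to the members. For 11 of the 36 tested members the highest library was over 3 times the lowest. Col9a3 and Col2a1 led these, at 10.9 and 10.5 times, followed by Col9a1 at 7.56 times. The other 8 were Col11a1, Col6a6, Col8a1, Col6a5, Col22a1, Col17a1, Col26a1 and Col5a3. In 10 of the 11 the highest library was knockdown-labelled replicate 3, the exception being Col6a5, and in all 11 WT replicate 3 was the highest WT library. These are the libraries with the most skeletal muscle RNA in each group, and other marker lists moved with them. The smooth muscle markers summed to 192, 186 and 332 FPKM in knockdown-labelled libraries, against 199, 205 and 253 FPKM in WT libraries, and 5 of 5 were highest in knockdown-labelled replicate 3 and, among WT libraries, in WT replicate 3. The 6 fibroblast markers were split. Dcn and Lum, 2 of the 6, were highest in knockdown-labelled replicate 3, and 4 of the 6 were highest among WT libraries in WT replicate 3. Pdgfra and Tcf21 went the other way, lowest of the WT libraries in WT replicate 3 and highest of their group in knockdown-labelled replicate 1. Sox10, a Schwann cell marker, had 8.57 FPKM in knockdown-labelled replicate 3 and at most 1.11 FPKM in any other library. Without both of them the log2 fold changes were -0.24 for Col9a3, -0.25 for Col9a1 and -0.40 for Col2a1, the opposite sign of the values over all 6 libraries (1.20, 0.77 and 0.69).

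Most markers of airway cartilage were also highest in knockdown-labelled replicate 3, in 10 of 13, and 6 of 13 were highest among WT libraries in WT replicate 3. The sum moved less, because the abundant markers Fgfr3, Matn4 and Hapln1 were highest in WT libraries. The 13 markers of airway cartilage summed to 92.9, 92.0 and 106 FPKM in knockdown-labelled libraries, against 111, 108 and 94.6 FPKM in WT libraries. Of 9 tested, 4 were higher and 3 lower when judged by an unadjusted p of 0.05. Ucma, a marker of chondrocytes, had 0, 0 and 2.37 FPKM in knockdown-labelled libraries, against 0.14, 0 and 0.14 FPKM in WT libraries, and Cnmd, also known as chondromodulin, had 0.37, 0.38 and 1.58 FPKM in knockdown-labelled libraries, against 0.30, 0.27 and 0.66 FPKM in WT libraries. Both were highest in knockdown-labelled replicate 3, as were Col2a1, Col9a1 and Col9a3. At the other end, 11 tested members differed by less than 1.5 times between their highest and lowest library, among them Col18a1, Col6a2, Col5a2 and Col27a1. The part of tissue content in these differences was not tested.

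**Figure D4:**
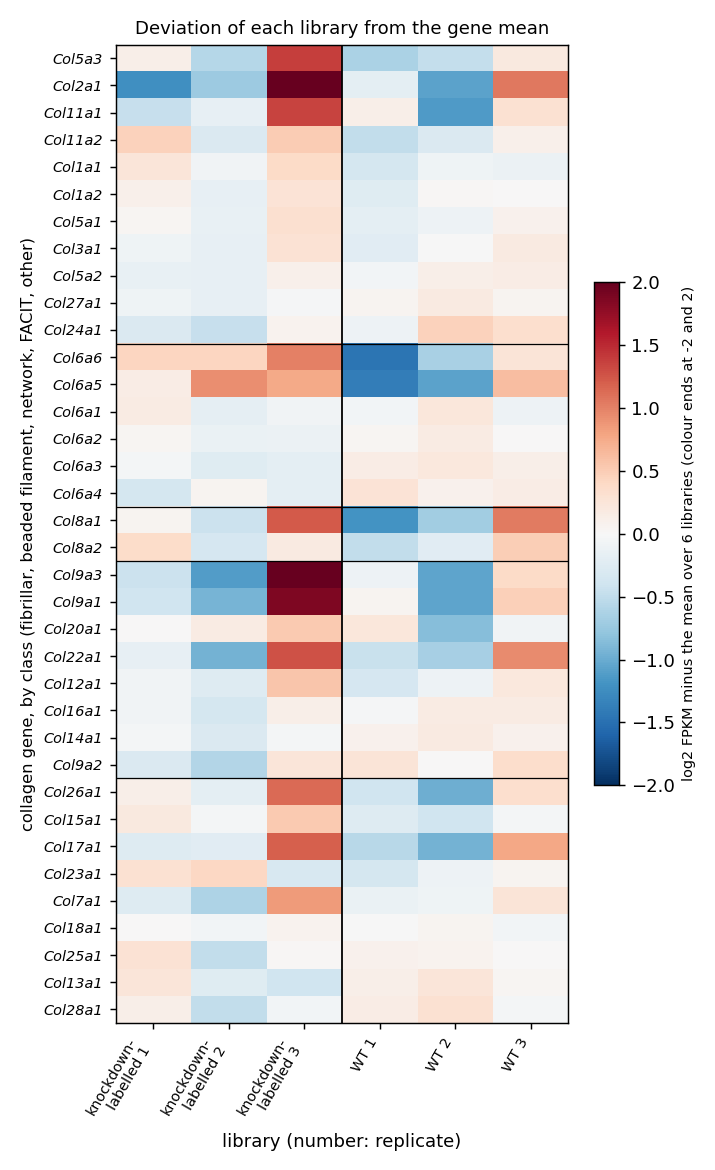
Deviation of each library from the mean of each tested collagen gene, in log2 FPKM, with knockdown-labelled libraries left of the black line and WT libraries right of it, and classes separated by lines. The darkest cells lie in knockdown-labelled replicate 3, for Col2a1, Col9a3 and Col9a1, while Col18a1, Col6a2 and Col5a2 are pale in every library.

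Against type IV collagen, the basement membrane collagens left out here, the sum of the members was set beside that of the excluded genes. The summed level of the 6 type IV genes was 700.4 ± 74.0 FPKM in knockdown-labelled and 858 ± 49.1 FPKM in WT libraries (SD, n = 3 each; exact permutation p = 0.1). The ratio of the members' sum to the type IV sum was 1.92, 1.78 and 2.45 in knockdown-labelled libraries, against 1.42, 1.71 and 1.75 in WT libraries. The ratio did not overlap between the groups, but the test, the smallest p of which is 0.1, gave 0.1. Endothelial and alveolar type 1 markers, of cell types that lie on basement membranes, were lower in the same libraries, as given above, and their part was not tested.

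The genes that make, modify, bind and regulate collagen were taken from 3 lists written with earlier results of these data known. Collagen biosynthesis covers prolyl and lysyl hydroxylases, the chaperone Serpinh1, propeptide proteinases and lysyl oxidases. Of 31 such genes 30 were tested, edgeR called none in either direction, and DESeq2 called 2 lower (6.67%, beside 3.02% of all genes). At an unadjusted p under 0.05, 0 were higher and 2 lower, 6.67% of those tested beside 17.0% of all genes, with a median log2 fold change of 0.01. Adamts14, a proteinase that removes the N-propeptide of procollagens, had 5.29, 4.82 and 4.78 FPKM in knockdown-labelled libraries, against 7.52, 8.39 and 7.66 FPKM in WT libraries (log2 fold change -0.66, SE 0.08, edgeR adjusted p = 0.0775). Pcolce2, which enhances C-propeptide removal, had 2.75, 4.44 and 3.92 FPKM in knockdown-labelled libraries, against 6.51, 7.24 and 6.56 FPKM in WT libraries (log2 fold change -0.87, edgeR adjusted p = 0.120). Neither overlapped between the groups, and both missed the threshold. Next by p were Colgalt2, a galactosyltransferase acting on hydroxylysine (edgeR adjusted p = 0.329), and Loxl3, a cross-linking enzyme (edgeR adjusted p = 0.374).

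Of 10 collagen receptor and uptake genes, 9 were tested, edgeR called none, DESeq2 called 1 higher (11.1%, beside 2.33% of all genes) and 3 lower (33.3%, beside 3.02%), and Gp6, the platelet receptor, was too low. At an unadjusted p under 0.05, 2 were higher and 5 lower, 77.8% of those tested beside 17.0% of all genes, and the median log2 fold change was -0.22. Itga1, a collagen-binding integrin of mesenchyme and endothelium, had 10.6, 9.85 and 9.43 FPKM in knockdown-labelled libraries, against 17.3, 17.1 and 15.0 FPKM in WT libraries (log2 fold change -0.72, edgeR adjusted p = 0.0715). Itga2, another collagen-binding integrin, had 4.18, 6.15 and 5.34 FPKM in knockdown-labelled libraries, against 10.4, 9.33 and 9.65 FPKM in WT libraries (log2 fold change -0.91, edgeR adjusted p = 0.0938). Itga10, a receptor of cartilage, ran the other way, with 1.84, 1.11 and 2.15 FPKM in knockdown-labelled libraries, against 0.748, 0.800 and 0.899 FPKM in WT libraries (log2 fold change 1.06, edgeR adjusted p = 0.153). Mrc2, which takes up collagen fragments, had 40.8, 36.9 and 35.4 FPKM in knockdown-labelled libraries, against 46.7, 52.9 and 44.2 FPKM in WT libraries (edgeR adjusted p = 0.174). None of these 4 overlapped between the groups. Endothelial and alveolar type 1 markers were lower in the same libraries, and their part in the integrin values was not tested.

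Of 15 transcription factors known for collagen genes 14 were tested, edgeR called none, and DESeq2 called 1 lower (7.14%, beside 3.02% of all genes). At an unadjusted p under 0.05, 2 were higher and 2 lower, 28.6% of those tested beside 17.0% of all genes, with a median log2 fold change of 0.09. Sox5, a partner of Sox9 on cartilage collagen genes, had 1.38, 1.59 and 1.53 FPKM in knockdown-labelled libraries, against 2.08, 1.83 and 2.05 FPKM in WT libraries (edgeR adjusted p = 0.145). Nfya, a subunit of the CCAAT-binding factor that acts on the type I collagen promoters, had 10.2, 8.37 and 8.65 FPKM in knockdown-labelled libraries, against 10.8, 11.9 and 12.4 FPKM in WT libraries (edgeR adjusted p = 0.172). Sox9 had 8.85, 7.23 and 13.9 FPKM in knockdown-labelled libraries, against 7.39, 6.55 and 5.85 FPKM in WT libraries, and overlapped. Creb3l1, which acts on Col1a1 in bone and fibroblasts, had 25.8, 24.6 and 39.6 FPKM in knockdown-labelled libraries, against 22.9, 21.9 and 21.9 FPKM in WT libraries, without overlap (edgeR adjusted p = 0.288).

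**Figure D5:**
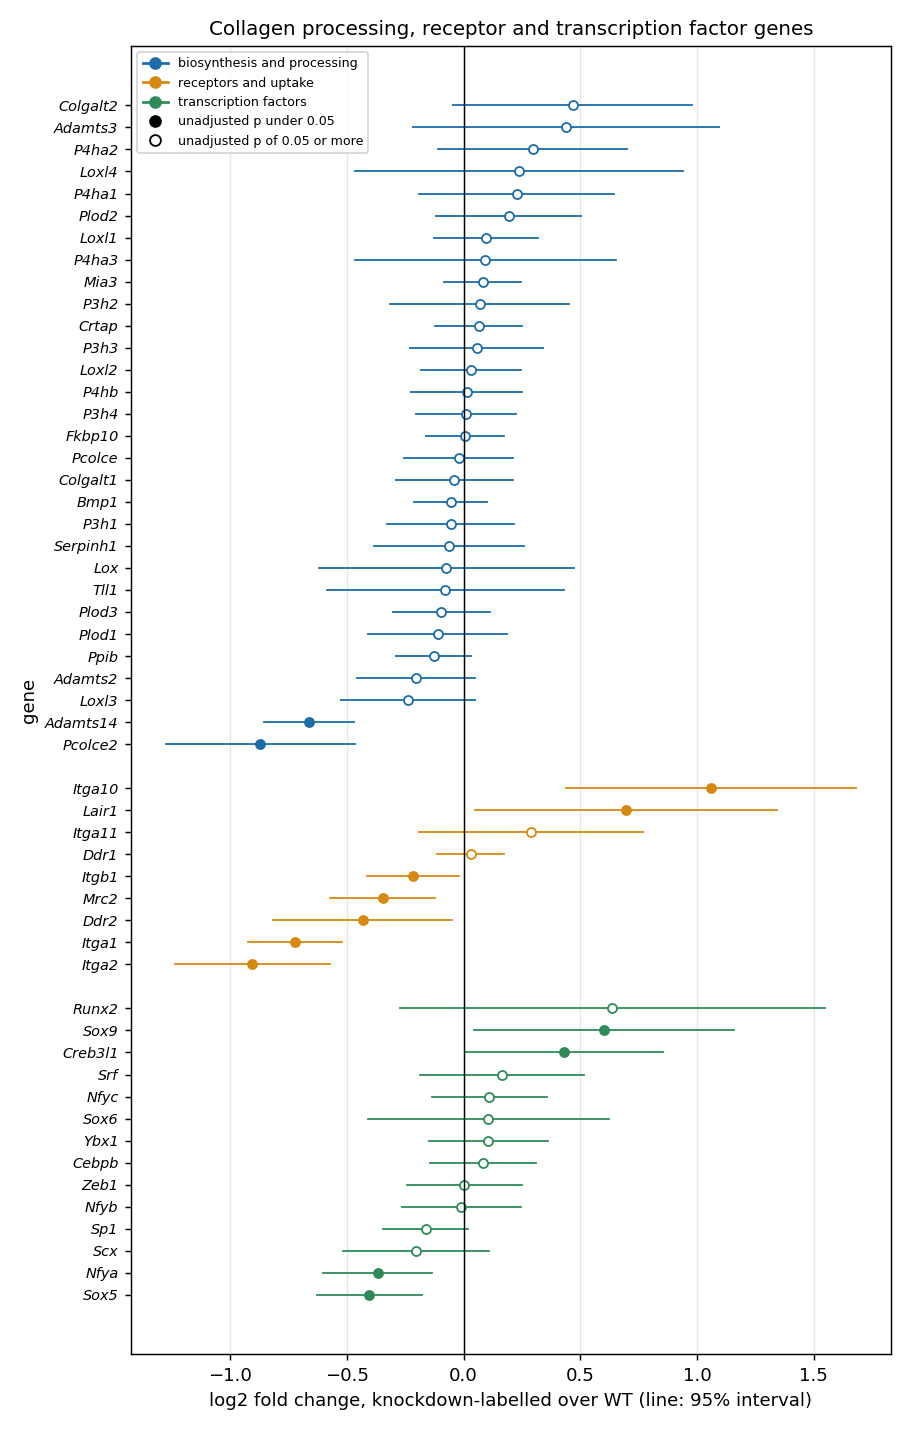
Log2 fold change, knockdown-labelled over WT, with 95% intervals from the edgeR quasi-likelihood fit, for the tested genes of collagen biosynthesis and processing (30), receptors and uptake (9) and transcription factors (14). Filled points have an unadjusted p under 0.05, and Itga2, Pcolce2, Itga1 and Adamts14 lie farthest to the lower side.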

How the data were processed

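Poly(A) RNA of 6 whole lungs was measured, 3 with a knockdown and 3 with a WT label. The authors deposited 1 table with raw counts and FPKM for each gene and library, beside exonic lengths and coordinates. Tools in the submitters' processing notes are HTSeq 0.6.1, HISAT2 2.0.1 and cutadapt 1.9.1, with no roles. For strand setting and genome build, the sources used here give nothing. FPKM in the deposited table were recomputed from counts, totals and lengths within 0.005.

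The members and lists were chosen with earlier results of these data known. Counts were tested with edgeR 4.0.16 in R 4.3.3 (filterByExpr, TMM factors of 0.986 to 1.02, quasi-likelihood fit with group only, two-sided, Benjamini-Hochberg over all 17728 genes tested, adjusted p under 0.05). The fit gave a biological coefficient of variation of 21.8%. Printed FPKM were recomputed with TMM-scaled totals. SE is the size of the log2 fold change over the square root of F, and intervals are at 95%. Chain ratios and class shares had two-sided exact permutation tests. Values in every library are given for the 3 most abundant members of each class, members with an unadjusted p under 0.05 and members of the chain ratios, and for up to 4 genes with the smallest p in each list of other collagen pathway genes. Other genes were named after their values were seen.

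Alternatives were median-of-ratios scaling, testing without a filter or only from a mean FPKM of 1, totals without the 20 most abundant genes, DESeq2 1.42.0, robust edgeR, limma 3.58.1 on log2(FPKM + 1) and log2(FPKM + 0.1), a threshold of 0.10, leaving out each library, and a covariate for embryo sex or heart muscle level. Leaving out replicate 3 of both groups was chosen after seeing the data. Sex was read from Y-linked transcripts (2 males among knockdown-labelled and 1 among WT embryos). Coding exons and GC content came from GENCODE M21 on GRCm38. Only 3 of the 38 members have the table's coordinates there, so no coordinates were converted. The edgeR script was tested on simulated data of 17473 genes, in which the comparison recovered 56.3% of genes changed by 1 and 75.9% of genes changed by 2 on the log2 scale, with 7 false calls.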

Additional observations from a re-analysis of the deposited data

How the results depend on the processing

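No paired analysis was possible because the labels give no replicate numbers that the groups share. Totals of 14383415 to 19262837 counts leave Col10a1 and Col19a1 too low to test, and 3 libraries a group limit the exact test to p = 0.1. No collagen gene was called by edgeR or limma under any alternative, and DESeq2 called 1 higher and 1 lower. Over all genes DESeq2 called 372 higher and 482 lower, no filter 32 and 49, robust edgeR 1 and 14, limma with a pseudocount of 0.1 0 and 3, the sex covariate 0 and 0 (2524 at an unadjusted p under 0.05), the heart muscle covariate 0 and 1 (1137), and leaving out replicate 3 of both groups 112 and 16, beside 1 and 5 with all 6 libraries. At an unadjusted p under 0.05, edgeR gave 2 to 10 members when a library was left out and 0 with the heart muscle covariate, beside 7. The all-gene numbers moved too. The 2 members without WT replicate 2 stood beside 2082 of 18408 genes. The 10 members without knockdown-labelled replicate 3 stood beside 2430 of 18026 genes. The 0 with the covariate stood beside 1137 of 17728 genes, and the 7 beside 3015 of 17728. Biosynthesis genes called lower numbered 1 with no filter, 2 with DESeq2 and 1 at an adjusted p of 0.10. Receptor genes called lower numbered 2 with no filter, 3 with DESeq2, 1 with robust edgeR, 1 without replicate 3 of both groups and 2 at an adjusted p of 0.10, and DESeq2 called 1 higher. DESeq2 called 1 transcription factor lower. For an adjusted p of 0.10 no share of all genes is given, so the counts at that threshold have nothing to be set beside. The causes of these shifts between settings were not tested.

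Leaving out 1 library gave class medians of -0.45 to 0.40 (FACIT), -0.11 to 0.26 (fibrillar), -0.0737 to 0.93 (network) and -0.10 to 0.25 (other). Without replicate 3 of both groups the FACIT median was -0.24 and that of the other collagens -0.0459. Without Col1a1, Col1a2 and Col3a1, the class share differed by 0.842 percentage points for fibrillar and 1.06 for other genes. Uncalled log2 fold changes crossed 0 when 1 library was left out, for Col6a1 (-0.15 to 0.0560), Col12a1 (-0.10 to 0.34), Col9a3 (-0.59 to 1.66), Col9a1 (-0.60 to 1.18), Col3a1 (-0.11 to 0.15), Col11a1 (-0.19 to 0.91), Col2a1 (-1.15 to 1.45), Col8a2 (-0.0814 to 0.46), Col8a1 (-0.22 to 1.39) and Col18a1 (-0.0230 to 0.0388), and, among members given by range, Col22a1 (-0.64 to 0.90), Col17a1 (-0.19 to 1.15), Col7a1 (-0.45 to 0.38) and Col25a1 (-0.25 to 0.11). With the heart muscle covariate, the log2 fold change was 0.15 for Col6a1, -0.0628 for Col3a1, -0.24 for Col8a2, -0.31 for Col8a1 and -0.14 for Col23a1, and with the sex covariate -0.0074 for Col18a1. Without replicate 3 of both groups it was -0.24 for Col9a3, -0.25 for Col9a1, -0.0053 for Col3a1, -0.40 for Col2a1 and -0.0459 for Col18a1. The 9 ratio differences kept their direction when any library was left out. For the ratios whose groups did not overlap, this outcome was fixed in advance. Counts in place of FPKM cannot change a ratio difference, since the lengths cancel, and are no further check.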
